A study of Mus musculus with 16 samples.

Results

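The 7 genes described here are serine proteases of the mouse chymase and granzyme locus on chromosome 14: Mcpt8, Gzme, Gzmd, Gzmf, Gzmg, Gzmc and Gzmb. They were chosen by name, with their responses in these arrays already known, out of 22911 genes that the array's probes could be assigned to. Each has 1 probe, which was matched through its transcript accession. RNA was measured on 16 single-colour Agilent arrays of primary lung fibroblasts, released by enzymatic digestion from mice labelled female and 8 weeks old. The cells came from wild type C57BL/6J mice or from Meflin knockout mice, which lack the membrane-anchored protein encoded by Islr. Each genotype received vehicle or 5 ng/ml recombinant TGF-β1 for 48 h, with 4 arrays in each of the 4 groups. The design text calls the 4 per group independent experiments. The strain background of the knockout mice is not given in the sources used here.

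Granzymes are proteases that cytotoxic T cells and natural killer cells store in granules and release with the pore protein perforin. Granzyme B cleaves after aspartate and triggers death of the target cell, whereas granzymes C to G form a rodent group expressed in activated killer cells and in natural killer cells of the pregnant uterus. Mcpt8, mast cell protease 8, lies among mast cell chymases by position but serves as a marker of mouse basophils. All are made as inactive precursors that cathepsin C trims, are held in granules on the proteoglycan serglycin, and are controlled by serpins. TGF-β1 turns fibroblasts into contractile, matrix-producing myofibroblasts.

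Only Mcpt8 and Gzme gave a measured signal. Mcpt8 lay well above background on 14 of 16 arrays and Gzme on 10 of 16. Gzmc did so on 1 of 16, and Gzmd, Gzmf, Gzmg and Gzmb on 0 of 16. Both measured genes lay close to background with vehicle, were bright with TGF-β1 in both genotypes, and were about 2-fold brighter in knockout than in wild type cells under TGF-β1. With vehicle the genotypes did not separate.

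The promoters of the 2 measured genes and of Gzmd are shown because Gzmd is the nearest relative of Gzme yet its probe stayed at background. They are the 250 bases before each gene's start in RefSeq (GRCm38.p6, minus strand), at chr14:56085198-56085447 for Mcpt8, chr14:56120626-56120875 for Gzme and chr14:56132594-56132843 for Gzmd. Capitals in Mcpt8 mark a CAGAC match, the SMAD-binding core, and capitals in Gzme and Gzmd mark the bases at which those 2 differ when aligned.
Mcpt8: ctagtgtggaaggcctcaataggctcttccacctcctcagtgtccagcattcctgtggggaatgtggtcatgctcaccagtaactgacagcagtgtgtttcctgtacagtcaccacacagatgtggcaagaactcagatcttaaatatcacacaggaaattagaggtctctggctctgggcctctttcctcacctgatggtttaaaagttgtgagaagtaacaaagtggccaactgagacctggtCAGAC
Gzme: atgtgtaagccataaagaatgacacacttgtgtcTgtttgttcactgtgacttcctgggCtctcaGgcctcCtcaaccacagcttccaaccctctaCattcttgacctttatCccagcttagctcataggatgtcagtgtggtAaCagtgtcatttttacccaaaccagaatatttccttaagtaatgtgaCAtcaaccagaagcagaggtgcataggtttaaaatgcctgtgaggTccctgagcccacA
Gzmd: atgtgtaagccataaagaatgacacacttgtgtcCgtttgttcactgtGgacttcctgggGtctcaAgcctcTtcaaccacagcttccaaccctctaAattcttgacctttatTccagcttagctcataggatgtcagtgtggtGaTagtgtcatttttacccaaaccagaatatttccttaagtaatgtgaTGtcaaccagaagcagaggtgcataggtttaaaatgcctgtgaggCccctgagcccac

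The Gzme and Gzmd windows were identical at 238 of 251 aligned columns, or 94.8%. Gzme shared 80.9% with Gzmc, 79.4% with Gzmg, 74.9% with Gzmf and 43.8% with Gzmb. Its window shared 46.0% with that of Mcpt8, the gene whose signal its own followed. CAGAC, searched on both strands, occurred once in the Mcpt8 window, 5 bases before the start, and once in the Gzme window, 219 bases before it. It was not found in the Gzmd window. The Gzmg and Gzmf windows, whose probes read background, each held 1 match, and 42.2% of 32851 mouse promoter windows of this length hold at least 1. TGTGGT, the core bound by RUNX factors, was found 2 times in each window of the 7 genes. At least 1 match was found in 14% of all windows. Mcpt1, Mcpt4 and Ctsg of the same locus each held 1 match. The windows of Gzme, Gzmd, Gzmg, Gzmf and Gzmc share 70.2% to 94.8% with each other, so their matches are not independent. GGAATG, the TEAD core, was found 2 times in Mcpt8 and not in Gzme or Gzmd, against 12.6% of all windows. The palindromic SMAD site GTCTAGAC, the GATA core AGATAA and the CArG box of serum response factor had no match in the windows of the 7 genes. The AP-1 site TGANTCA matched in Gzmb only, against 6.75% of all windows. These are letter matches and do not show binding.

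Signals below are linear intensities after each array was scaled so that its 75th percentile equalled 457.4. The lowest such signal that counted as well above background ranged from 11.75 to 17.17 between arrays.

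Mcpt8 with vehicle read 28.2, 37.7, 14.9 and 15.1 in the 4 wild type arrays, the third of which was not well above background. With TGF-β1 the wild type arrays read 559.2, 626.2, 632.9 and 654.3. Knockout vehicle arrays read 17.1, 15.9, 25.5 and 33.9, the first of which was not well above background. Knockout TGF-β1 arrays read 1264, 1192, 1693 and 1368. Each TGF-β1 array was higher than every vehicle array, and each knockout TGF-β1 array was higher than every wild type one. The group means on the log2 scale were 4.46 ± 0.67 (SD, n = 4) in wild type vehicle, 9.27 ± 0.10 in wild type TGF-β1, 4.46 ± 0.51 in knockout vehicle and 10.42 ± 0.22 in knockout TGF-β1.

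Gzme, granzyme E, read 14.6, 11.8, 7.68 and 11.9 in wild type vehicle, and only the first was well above background. Wild type TGF-β1 arrays read 280.2, 307.8, 305.8 and 308.0. Knockout vehicle arrays read 12.2, 11.5, 15.8 and 9.89, of which only the third was well above background. Knockout TGF-β1 arrays read 536.7, 514.0, 714.5 and 589.2. The order of the groups matched that of Mcpt8, and the 2 vehicle groups overlapped. The log2 means were 3.48 ± 0.39 (SD, n = 4), 8.23 ± 0.07, 3.605 ± 0.28 and 9.19 ± 0.21 in the same order of groups.

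**Figure D1:**
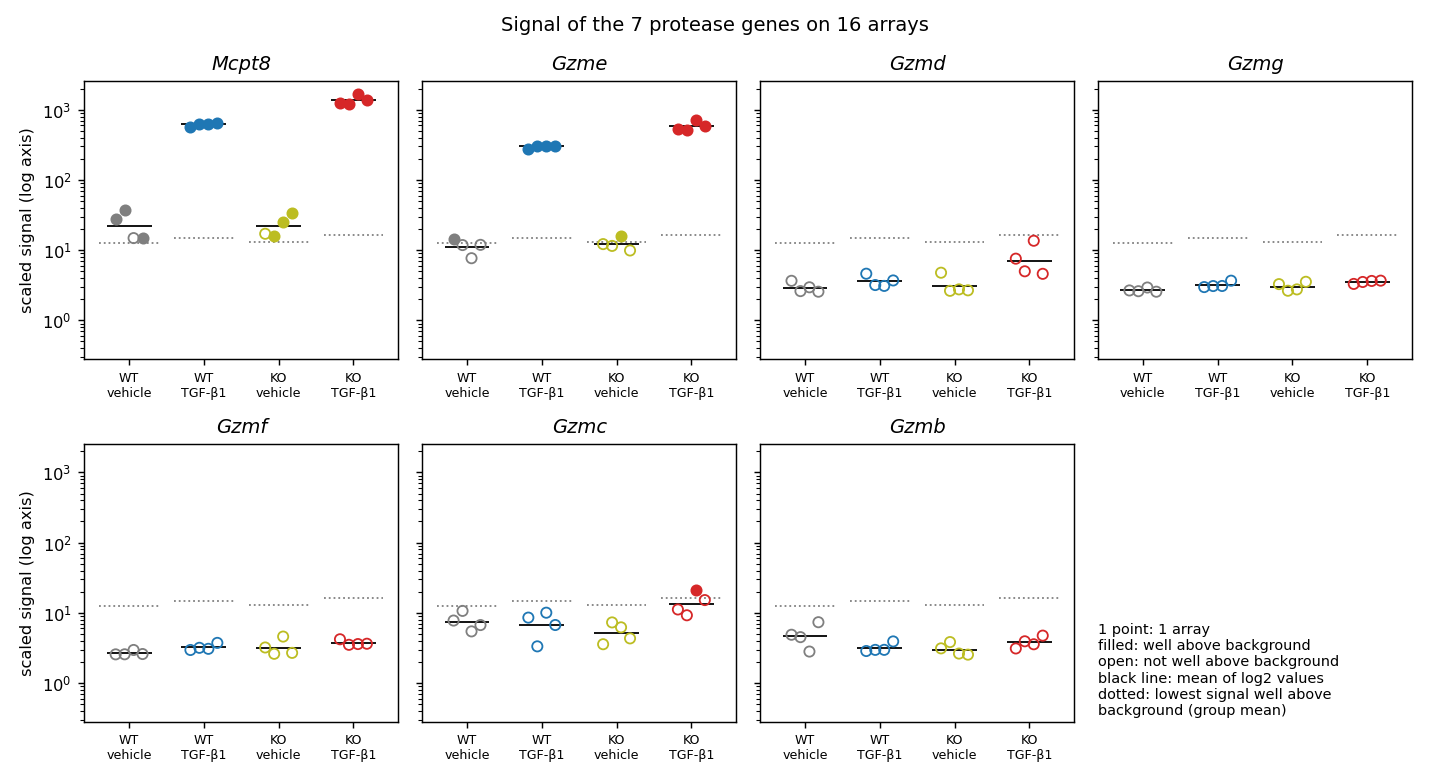
Scaled signal of each of the 7 genes by array (log axis) in the 4 groups, with filled points for arrays well above background and open points for the others. Mcpt8 reads 559.2 to 1693 and Gzme 280.2 to 714.5 with TGF-β1, while the probes of the other 5 genes stay at 21.23 or below.

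The response to TGF-β1 is among what the genes were chosen on, so it is given as a description with no test. In wild type cells Mcpt8 differed between TGF-β1 and vehicle by 4.80 ± 0.28 log2 units (SE), which is 27.9-fold, and Gzme by 4.75 ± 0.17, which is 26.8-fold. They ranked 4 and 5 among 15394 genes tested in order of rise. In knockout cells the differences were 5.96 ± 0.28 for Mcpt8, or 62.1-fold, and 5.58 ± 0.17 for Gzme, or 48-fold, with ranks 5 and 7. Since 3 of 4 vehicle arrays of each genotype did not measure Gzme above background, its fold rests on a baseline at the detection limit. The 4 TGF-β1 arrays lay above the 4 vehicle arrays for 38.0% of all tested genes in wild type and 43.9% in knockout. With normexp background correction, which adds a fixed offset to every spot, the wild type differences were 3.06 for Mcpt8 and 2.35 for Gzme, and those in knockout 4.08 and 3.07, with the same order of groups.

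Under TGF-β1, knockout exceeded wild type by 1.15 ± 0.28 log2 units for Mcpt8, or 2.21-fold, and by 0.96 ± 0.17 for Gzme, or 1.94-fold. The 95% intervals ran from 0.54 to 1.76 and from 0.59 to 1.33. They make no allowance for the choice of genes with results known. This contrast shares arrays with the response to TGF-β1, so it is described without a test. Knockout arrays lay above wild type arrays for 37.2% of all tested genes, and Mcpt8 and Gzme ranked 378 and 558 from the top. These ranks cannot be compared with those in the response to TGF-β1, which was among what the genes were chosen on. Both groups were measured well above background here, so these values do not rest on the detection limit. Within the first slide the differences were 1.05 and 0.84, and within the second 1.24 and 1.08. The response to TGF-β1 was larger in knockout by 1.15 ± 0.40 for Mcpt8 and 0.84 ± 0.24 for Gzme, again given without a test. By slide this was 2.04 and 0.27 for Mcpt8 and 0.99 and 0.69 for Gzme. For Mcpt8 the 2 slides differed mainly in the vehicle arrays, 2 a group on each slide and near background. There knockout minus wild type was -0.98 and 0.97. Slide and replicate number cannot be told apart here.

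The genotypes were tested with vehicle, a contrast not known to have been used to choose the genes. Neither gene passed in limma with Benjamini-Hochberg adjustment over 15394 genes, of which 13.2% passed, 7.06% higher and 6.16% lower. The groups overlapped for both, while knockout arrays all lay above for 10.6% of genes. Both genes passed the filter through their TGF-β1 arrays. With vehicle, Mcpt8 was well above background on 3 of 4 arrays of each genotype and Gzme on 1 of 4. The Gzme test thus compared signals at the detection limit and could not show a genotype difference below it. Mcpt8 lay close to that limit. Knockout minus wild type was -0.005 ± 0.285 for Mcpt8 (adjusted p = 0.994) and 0.12 ± 0.17 for Gzme (adjusted p = 0.71). The 95% interval for Mcpt8, -0.61 to 0.60, leaves room for changes of that size. The interval for Gzme, -0.25 to 0.49, describes signal at the detection limit and does not bound a change in its transcript. For Mcpt8 the 2 slides gave opposite differences, each from 2 arrays a group: -0.98 on the first slide (limma adjusted p = 0.04) and 0.97 on the second (limma adjusted p = 0.022). Gzme gave -0.15 (limma adjusted p = 0.516) and 0.39 (limma adjusted p = 0.472).

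Mcpt8 and Gzme tracked each other between arrays of the same group once TGF-β1 was present. Over the 8 TGF-β1 arrays, deviations from the group mean correlated with Pearson r = 0.988 and Spearman rho = 0.952. Among 15393 genes, Gzme had the highest such correlation with Mcpt8. The median gene had 0.153, and the 95th percentile was 0.816. Knockout replicate 3 was the highest array for both, 0.31 above its group mean for Mcpt8 and 0.29 for Gzme. Without it r was 0.97 and Gzme ranked 3, and without the 2 arrays farthest from the median it was 0.95 over 6 arrays. Over the 8 vehicle arrays, where Gzme lay mostly at background, r was 0.32. The arrays share the labelling and the scaling, and these coefficients are descriptions.

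**Figure D2:**
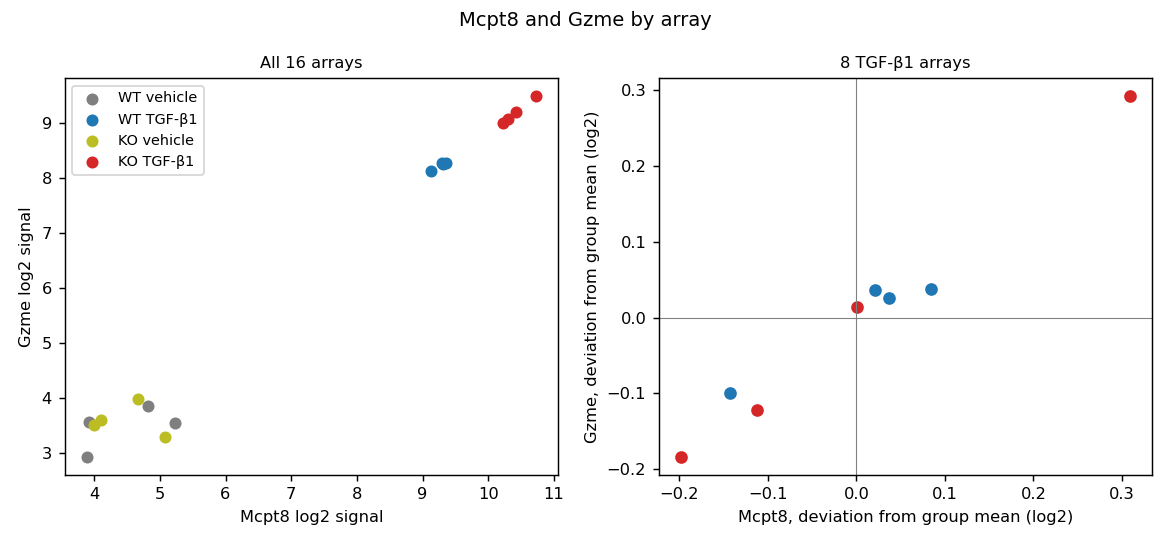
Left, log2 signal of Mcpt8 (horizontal) and Gzme (vertical) on the 16 arrays, coloured by group. Right, deviations from the group mean (log2) of the 2 genes on the 8 TGF-β1 arrays, where r was 0.988 and knockout replicate 3 stands highest for both.

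Among the genes whose pattern over the 16 arrays was most like the mean of Mcpt8 and Gzme were Uck2, Nek6, Des, Afg3l1, Eno1b, Mif and Pck2, with Pearson r from 0.9934 to 0.9958. Such values mostly reflect the 3 separate levels of the groups. Uck2, a uridine-cytidine kinase, differed by 1.82 with TGF-β1 in wild type and 2.23 in knockout, and Des, the muscle intermediate filament desmin, by 2.21 and 2.75. Mif, the cytokine macrophage migration inhibitory factor, differed by 1.81 and 2.15, and Pck2, the mitochondrial phosphoenolpyruvate carboxykinase, by 1.497 and 2.00. These 7 moved less on the log2 scale than the protease pair.

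The remaining 5 genes stayed at or near background. Gzmd, granzyme D, ranged from 2.56 to 13.6 and was not well above background on any array. Its knockout TGF-β1 arrays read 7.56, 5.00, 13.6 and 4.60. Gzmc, granzyme C, ranged from 3.33 to 21.2, and the 1 array that measured it was knockout TGF-β1 replicate 3, which was also the highest array for Mcpt8, Gzme and Gzmd. Gzmf ranged from 2.56 to 4.59, Gzmg from 2.56 to 3.68 and Gzmb, the main death-inducing granzyme, from 2.54 to 7.36. None of the 5 passed the filter on dim probes. Without the filter, the 4 TGF-β1 arrays lay above the vehicle arrays for Gzmg in wild type and Gzmc in knockout, as they did for 37.4% and 36% of 22906 genes. Their log2 means there were 1.68 against 1.43 for Gzmg and 3.76 against 2.36 for Gzmc. A dim probe gives only an upper bound on these arrays and does not show that the transcript was missing.

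Cross-hybridization between relatives is a concern for this family. The probe sequences are not in the files used here, so whether the Gzme probe also reads Gzmd, Gzmf, Gzmg or Gzmc transcripts was not tested. What the arrays show is that the probes assigned to these relatives read no more than 21.2 on arrays where the Gzme probe read 280.2 to 714.5. The neighbouring Gzmn, which also lies among them, ranged from 2.45 to 4.08. The chymase neighbours of Mcpt8, Mcpt9 and Mcpt4, were each well above background on 1 of 16 arrays, and whether the Mcpt8 probe reads other transcripts was not tested.

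Most other genes of the locus gave no measured signal. RefSeq places 26 genes from Cma1 to Gzmb, of which 17 have a probe and 5 passed the filter. The order runs Cma1, Mcpt-ps1, Cma2, Gm5801, Mcpt1, Mcpt2, Mcpt9, Mcpt4, Mcpt8, Ctsg, Gzme, Gzmd, Gzmg, Gzmn, Gzmf, Gzmc and Gzmb among genes with probes. Ctsg, the neutrophil protease cathepsin G that lies between Mcpt8 and Gzme, was well above background on 0 of 16 arrays, as were Cma1, Mcpt1, Mcpt2 and Gzmn. Mcpt4, a connective tissue mast cell chymase, was measured on knockout TGF-β1 replicate 1 alone, at 91.1. Mcpt9 was measured on wild type TGF-β1 replicate 4 alone, at 47.9.

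Cma2, a chymase gene at the other end of the locus, was measured on 16 of 16 arrays. It rose with TGF-β1 by 0.35 ± 0.10 in wild type (limma adjusted p = 0.00712) and 0.68 ± 0.10 in knockout (limma adjusted p = 1.92e-05). The pseudogene Gm5801 rose by 0.35 ± 0.04 (limma adjusted p = 7.65e-07) and 0.82 ± 0.04 (limma adjusted p = 1.6e-11), and the pseudogene Mcpt-ps1 fell by 0.65 ± 0.16 (limma adjusted p = 0.00208) and 0.81 ± 0.16 (limma adjusted p = 0.000237). These changes were small beside those of Mcpt8 and Gzme, and neighbours within the locus moved in opposite directions. Of 6 flanking genes tested, 2 rose and 1 fell in wild type, and 3 rose and 1 fell in knockout. Of all tested genes, 41.3% rose and 27.3% fell in wild type, and 46.6% rose and 35.9% fell in knockout. Khnyn rose by 0.41 and 0.50, Sdr39u1 by 0.20 and 0.17, and Rnf17 by 0.61 in knockout, while Parp4 differed by -0.24 and -0.60. Nynrin and Cenpj did not pass in either genotype.

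**Figure D3:**
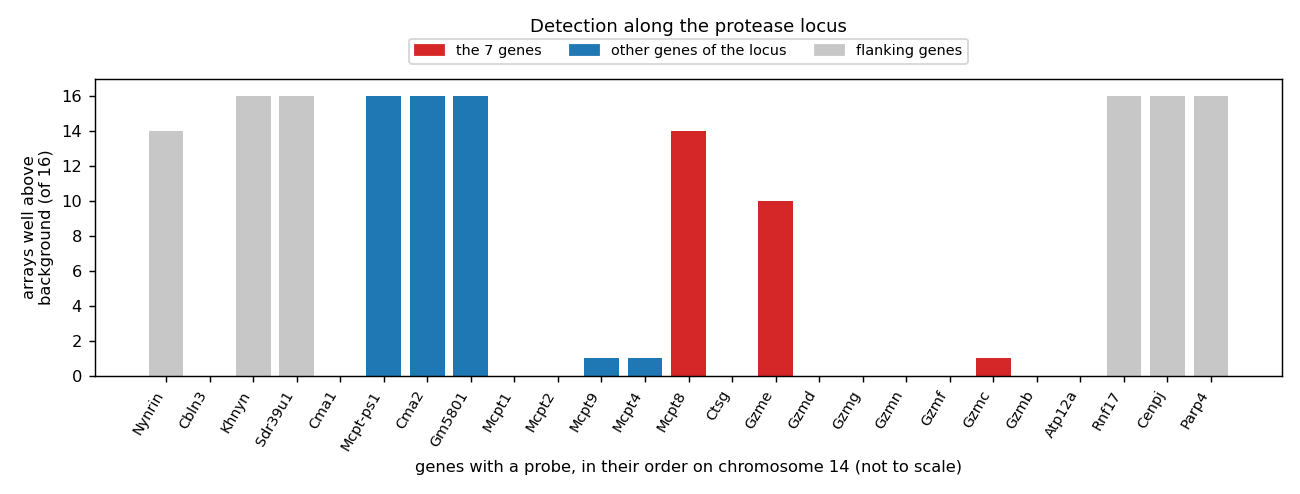
Number of arrays (of 16) on which each gene's probe was well above background, for genes with a probe in their order on chromosome 14, not to scale. Within the locus, Mcpt8 (14) and Gzme (10) stand between genes measured on 0 or 1 array, and the outer genes Cma2, Mcpt-ps1 and Gm5801 were measured on 16.

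Related genes were taken from 5 lists of 34 genes, chosen with earlier results of these data known. The lists hold other genes of the locus, granzymes elsewhere, granzyme partners, inhibitors and matrix substrates. Of the 34, 33 have a probe and 17 passed the filter. In wild type cells 14 of the 17 changed with TGF-β1 (7 up and 7 down, 82.4%) against 68.6% of all tested genes, of which 41.3% rose and 27.3% fell. In knockout cells 15 changed (8 up and 7 down, 88.2%) against 82.6%, with 46.6% up and 35.9% down. The split depends on the scaling: with quantile normalization 5 rose and 9 fell in wild type, and 4 rose and 11 fell in knockout. The median difference was 0.07 in wild type and -0.03 in knockout, beside 0.08 and 0.10 over all genes. Between genotypes 3 of 17 changed with vehicle (1 up and 2 down, 17.6%) against 13.2% of all genes (7.06% up and 6.16% down). Under TGF-β1 11 did (4 up and 7 down, 64.7%) against 70.2% (39.7% up and 30.5% down), and with quantile normalization 3 up and 11 down. Members of these lists moved in both directions in each comparison.

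Gzma and Gzmk, the granzymes on another chromosome, were well above background on 0 of 16 arrays. Gzmm, granzyme M, was measured on all 16 and fell with TGF-β1 by 0.99 ± 0.07 in wild type (limma adjusted p = 1.28e-08) and 1.26 ± 0.07 in knockout (limma adjusted p = 2.66e-10). Its difference between genotypes under TGF-β1, -0.21 (limma adjusted p = 0.0159), was 0.05 with normexp (limma adjusted p = 0.321). Of the 2 granzyme genes that passed the filter, Gzme was thus higher and Gzmm lower with TGF-β1.

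Among the 5 partners, 2 rose and 3 fell in wild type, and 3 rose and 1 fell in knockout. Prf1, the pore protein perforin, rose by 0.33 ± 0.12 in wild type (limma adjusted p = 0.0303) and 0.70 ± 0.12 in knockout (limma adjusted p = 8.84e-05). Ctsc, which activates granzyme precursors, rose by 0.58 ± 0.06 and 0.65 ± 0.06 (limma adjusted p = 2.59e-07 and 3.48e-08). Srgn, the granule proteoglycan serglycin, fell by 0.28 ± 0.06 in wild type (limma adjusted p = 0.000925) and rose by 0.34 ± 0.06 in knockout (limma adjusted p = 0.000123). Igf2r, the mannose 6-phosphate receptor that can take up granzyme B, fell by 0.25 and 0.46 (limma adjusted p = 0.00137 and 2.65e-06). Ctsh, a second precursor-activating cathepsin, fell by 0.50 in wild type (limma adjusted p = 2.89e-07). In knockout it differed by -0.03 (limma adjusted p = 0.603), but by -0.43 with quantile normalization, which passed. With vehicle, Srgn and Ctsh were lower in knockout by 0.29 and 0.23 (limma adjusted p = 0.00695 and 0.00548), and Igf2r was higher by 0.20 (limma adjusted p = 0.0327, and 0.0958 with normexp).

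Of 12 serpins listed as inhibitors, 11 have a probe and 5 passed the filter. The mouse-specific Serpinb9b to Serpinb9g were well above background on 0 of 16 arrays. In wild type 1 rose and 2 fell, and in knockout 1 rose and 4 fell. Serpina3n, a secreted serpin that inhibits granzyme B, read 4480, 5125, 4941 and 4695 in wild type vehicle and 2578, 2485, 2539 and 2564 in wild type TGF-β1. In knockout it read 4188, 4618, 4786 and 4803 with vehicle and 52.2, 72.1, 80.2 and 70.6 with TGF-β1. The knockout TGF-β1 arrays stood far below every other array. It fell by 0.92 ± 0.10 in wild type (limma adjusted p = 8.83e-07) and fell by 6.08 ± 0.10 in knockout (limma adjusted p = 1.38e-16), which is 67.6-fold. Among the 5 measured inhibitors it had the widest genotype gap under TGF-β1, in the direction opposite to Mcpt8 and Gzme.

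Serpinb9, the intracellular granzyme B inhibitor, read 3204, 3032, 3581 and 3422 in wild type vehicle and 2232, 2571, 2618 and 2668 with TGF-β1. In knockout it read 2580, 3054, 3271 and 3060 with vehicle and 1034, 1065, 1079 and 1173 with TGF-β1. It fell by 0.39 ± 0.08 in wild type (limma adjusted p = 0.000371) and 1.46 ± 0.08 in knockout (limma adjusted p = 1.04e-10). Serpinb1a fell in knockout by 1.42 ± 0.04 (limma adjusted p = 1.85e-14), and in wild type it differed by 0.005 (limma adjusted p = 0.901), or by -0.10 with quantile normalization (limma adjusted p = 0.0167). Serpinb6b rose by 0.20 in wild type (limma adjusted p = 0.00883, lost with quantile normalization at 0.152) and fell by 0.45 in knockout (limma adjusted p = 4.48e-06). Serpinb6a differed by 0.07 in wild type and rose by 0.19 in knockout, but with quantile normalization it fell by 0.29 in wild type and fell by 0.38 in knockout. Under TGF-β1, Serpina3n, Serpinb1a, Serpinb9 and Serpinb6b were lower in knockout, with differences from wild type of -5.225, -1.42, -1.21 and -0.61 log2 units (limma adjusted p at most 2.91e-07).

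**Figure D4:**
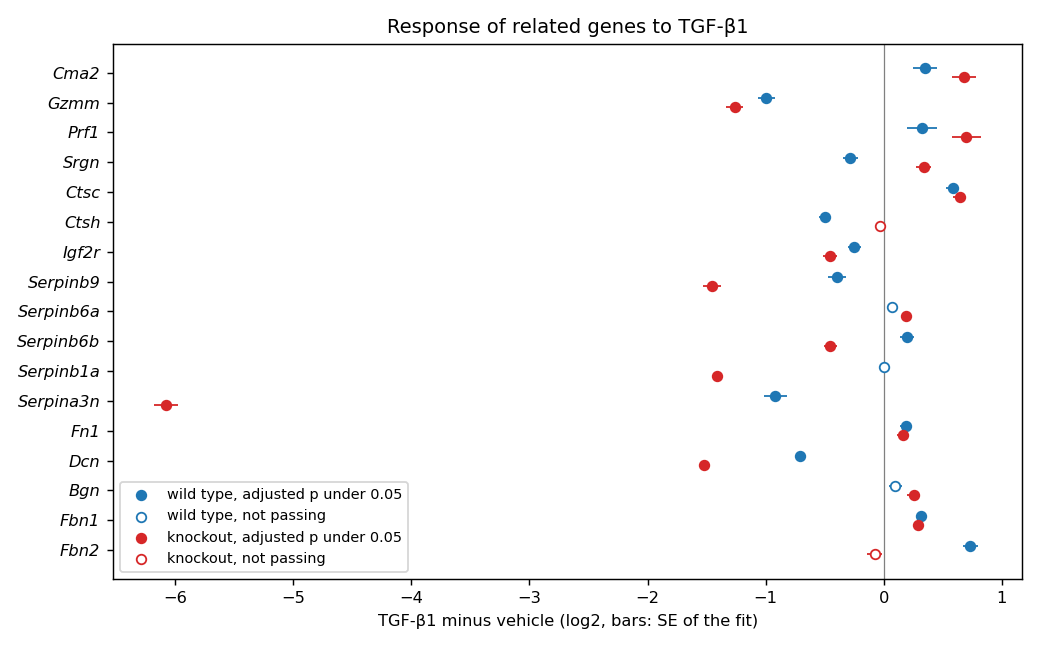
Difference between TGF-β1 and vehicle (log2, bars show the SE of the fit) in wild type and knockout cells for the 17 related genes that passed the filter, filled where the adjusted p was under 0.05. Serpina3n in knockout, at -6.08, lies apart from all other points.

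The matrix list holds proteins that granzymes can cut outside cells. Of its 6 genes, 5 passed the filter, with 3 up and 1 down in each genotype. Dcn, the proteoglycan decorin, fell by 0.71 ± 0.04 in wild type and 1.52 ± 0.04 in knockout (limma adjusted p = 4.4e-10 and 1.72e-14). Fbn2, fibrillin 2, rose by 0.73 ± 0.06 in wild type (limma adjusted p = 8.82e-08), and in knockout it differed by -0.07 (limma adjusted p = 0.293). Fn1, fibronectin, rose by 0.19 and 0.16, and Fbn1, fibrillin 1, by 0.32 and 0.29. Bgn, biglycan, differed by 0.10 in wild type and rose by 0.25 in knockout. With quantile normalization the knockout differences of Fn1, Fbn1 and Bgn were -0.31, -0.18 and -0.09, and that of Fn1 in wild type was -0.08, so their direction depends on the scaling.

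The labels give 1 cell type, and markers of others were read beside the proteases. All 7 fibroblast markers passed the filter, with a summed scaled signal of 370400 to 485000 over all arrays. The 4 leukocyte markers also passed, and their sum ranged from 28750 to 34250 in wild type vehicle, 20860 to 22340 in wild type TGF-β1, 24580 to 25950 in knockout vehicle and 14720 to 16580 in knockout TGF-β1. Of 8 mast cell markers 7 have a probe and 5 passed, with sums of 789.6 to 1127, 455.8 to 489.9, 790.7 to 921.2 and 368.1 to 405.2 in the same order. Of 6 basophil markers 4 passed, with sums of 5067 to 5598, 4459 to 5050, 4650 to 5180 and 3393 to 3981. The basophil sum is almost wholly that of Il3ra, a cytokine receptor chain at 3150 to 5414. Fcer1a, Ms4a2 and Gata2 are on both lists. Fcer1a, the receptor chain that defines both of those cells, was well above background on no array, nor was the basophil receptor Cd200r3. Summed leukocyte and mast cell markers were lowest in knockout TGF-β1. The cytotoxic lymphocyte sum given below was not, at 776 to 940.7 there and 696 to 794.1 in knockout vehicle. Among single basophil markers, Gata2 and Prss34 had their highest mean in knockout TGF-β1. The 5 macrophage markers fell with TGF-β1 in both genotypes, with sums of 72000 to 85840 and 42380 to 44830 in wild type vehicle and TGF-β1, and 61630 to 65040 and 28360 to 31490 in knockout. Both endothelial markers also fell, with sums of 728.3 to 793.4, 423.2 to 458, 734 to 871.9 and 247 to 310.3 in the 4 groups. Of 3 epithelial markers, Cdh1 rose, Sftpc fell at least 23.5-fold in wild type and at least 17.2-fold in knockout, and Epcam did not pass the filter. The epithelial sums were 394.1 to 536.4, 142.8 to 168.1, 291 to 392.2 and 118.7 to 137.3. Whether these cells take part in the signal of Mcpt8 or Gzme was not tested. In bulk RNA, fewer cells of a type and less RNA per cell cannot be told apart.

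Single markers of these cells moved in different directions. Tpsb2, the mast cell tryptase, fell with TGF-β1 by 1.75 ± 0.28 in wild type and 1.07 ± 0.28 in knockout (limma adjusted p = 4.82e-05 and 0.00228). Kit, the stem cell factor receptor, fell by 1.41 and 3.08 (limma adjusted p = 4.76e-09 and 1.49e-13). Prss34, a basophil protease, differed by -0.08 and 0.32 (limma adjusted p = 0.715 and 0.104). Gata2, a transcription factor of both lineages that other cells also express, rose by 0.61 and 0.92 (limma adjusted p = 1.01e-07 and 3.03e-10).

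Of 17 cytotoxic lymphocyte markers 6 passed the filter, with sums of 1065 to 1315 in wild type vehicle, 725.5 to 854.9 in wild type TGF-β1, 696 to 794.1 in knockout vehicle and 776 to 940.7 in knockout TGF-β1. In wild type vehicle Cd2, at 704.1 to 880.5, made up most of the sum. Cd2 fell with TGF-β1 by 1.24 and 0.38 (limma adjusted p = 3.91e-10 and 9.18e-05). With vehicle it was lower in knockout by 1.33 (limma adjusted p = 1.13e-08). Cd3e differed with TGF-β1 by 0.16 and 0.20 (limma adjusted p = 0.337 and 0.205). Prf1 is also on the list of partners above. Klrd1, Klrk1, Ncr1, Cd8a, Ifng, Fasl and Il2rb were well above background on no array. Klrb1c, the natural killer receptor NK1.1, fell at least 2.98-fold and 1.72-fold to below background (limma adjusted p = 4.43e-06 and 0.00501), and Cd8b1, a chain of the CD8 receptor, rose by 0.62 and 0.85 (limma adjusted p = 0.00924 and 0.000712). Nkg7, a granule membrane protein of these cells, had the same order of groups as Gzme and Mcpt8. It was well above background on 0 of 8 vehicle arrays, whose signals were 2.94 to 11.7. With TGF-β1 it read 19.1, 21.0, 29.1 and 21.3 in wild type and 122.3, 82.5, 98.6 and 118.5 in knockout, where it was well above background on all 8. It rose at least 1.80-fold in wild type and at least 7.98-fold in knockout (limma adjusted p = 5.8e-05 and 1.01e-07). Under TGF-β1, knockout exceeded wild type by 2.22 ± 0.33 log2 units (limma adjusted p = 2.73e-05), or 4.66-fold. Whether lymphocytes contribute to the signal of Nkg7, Gzme or Mcpt8 was not tested.

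The genotype labels were checked on the targeted gene. Islr read 1726 to 1880 in wild type vehicle and 299.7 to 343.1 in wild type TGF-β1, well above background on all 8 arrays. In the 8 knockout arrays it read 2.53 to 3.52 and was well above background on none. Before scaling, the 75th percentile of intensity ranged from 382.1 to 525.6, and 31322 to 35472 probes per array were well above background with 0 saturated spots. Precision is limited by 4 arrays per group.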

How the data were processed

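The deposited files give linear spot intensity after background subtraction, written by Agilent Feature Extraction 11.0.1.1 per the file headers and the submitters' processing notes. The authors also deposited a table of 9933 probes in log2 units, whose normalization and choice of probes are not given in the sources used here. Each column followed its array's log2 intensity (r of at least 0.999), so scale and direction are known and values are not centred per probe. How arrays were aligned is not stated. For the 5 related genes in this table, differences lay close to those with quantile normalization, as for Dcn in wild type (-1.053 and -1.049). For Gzme in wild type they were 5.145 and 4.894. Column medians were 6.595 to 6.615 in wild type vehicle, 6.466 to 6.493 in wild type TGF-β1, 6.567 to 6.593 in knockout vehicle and 6.38 to 6.391 in knockout TGF-β1. It served as an alternative.

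From the intensities, log2 values were shifted to a common 75th percentile and spots of a probe averaged. Of 56605 probes, 27 with outlier marks were left out, and 33888 lay well above background (the scanner program's mark) on all 4 arrays of at least 1 group. Accessions matched to RefSeq genes of GRCm38.p6 named 32994 probes, and the brightest kept probe stood for each of 15394 genes. The design was drawn on mm9, so gene order only was taken from the reference. limma 3.58.1 in R 4.3.3 fitted 1 coefficient per group, 2-sided, with Benjamini-Hochberg adjustment over 15394 genes, and adjusted p under 0.05 counted as changed. A change from a group not well above background on any array is a bound against the lowest signal that was. Values after ± are SEs of differences unless SD is given. The fit was tested on simulated data. Figures were drawn with matplotlib 3.10.9 and promoters read with Python 3.11.15.

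The 7 genes and all lists were chosen with earlier results of these data known. Named genes are the 7, the list genes, the genes of the locus and the 4 nearest protein-coding genes with a probe on either side, and the 8 most correlated genes, 1 of which is not reported here. Replicates 1 and 2 of every group were on 1 slide and 3 and 4 on the other.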

Additional observations from a re-analysis of the deposited data

Results flagged for a closer look

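In 80 sets of 4 arrays tested for a single array that stands apart by Dixon's criterion, 7 had one, where chance gives about 1 in 20. Wild type TGF-β1 replicate 1 was low for Gzme, at 280.2. The others were Ctsh in knockout vehicle replicate 4 (high, 11270), Serpinb6a in wild type vehicle replicate 2 (low, 34200), Serpinb6b in knockout vehicle replicate 1 (low, 2307), Bgn in knockout vehicle replicate 2 (low, 6648) and knockout TGF-β1 replicate 2 (high, 8499), and Fbn2 in wild type vehicle replicate 2 (high, 164.1).

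For 10 of the 17 related genes the response to TGF-β1 differed between genotypes by the interaction term in limma, knockout minus wild type in log2 units. That is 58.8%, beside 58.3% of all 15394 genes. The differences were -0.266 for Gzmm, 0.622 for Srgn, 0.469 for Ctsh, -0.208 for Igf2r, -1.063 for Serpinb9, -0.646 for Serpinb6b, -1.421 for Serpinb1a, -5.16 for Serpina3n, -0.812 for Dcn and -0.807 for Fbn2. The limma adjusted p was 7.69e-13 for Serpina3n and 0.0393 for Igf2r, the least certain of the 10. With normexp the Gzmm difference was 0.009 and that of Igf2r -0.148, and neither passed (limma adjusted p = 0.916 and 0.11). With quantile normalization that of Gzmm was -0.161 (limma adjusted p = 0.177).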

How the results depend on the processing

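Of 204 settings of the counts of changed genes, 196 left the count within 1.5 times its value, and of 200 settings of Mcpt8 and Gzme values, 190 moved the value by less than the SD between arrays and kept its call. Of the other 10, 8 kept their sign with a larger move and 2 made a call for Mcpt8 with vehicle. Without the filter on dim probes the TGF-β1 arrays lay above the vehicle arrays for 3 of the 7 genes in each genotype. They did so for 37.4% of 22906 genes in wild type and 36% in knockout. The gene added was Gzmg in wild type and Gzmc in knockout, both dim. Without the filter 24 of the 33 related genes with a probe changed with TGF-β1 in knockout. The share of all genes was not computed for that setting. In the authors' log2 table, which holds 5 of the related genes, 5 and 4 changed with TGF-β1 in wild type and knockout, and 0 and 5 differed between genotypes with vehicle and TGF-β1. There, Gzme differed by 5.15 and 5.84 with TGF-β1. Within the first slide 1 of the 2 genes and 0 related genes differed by genotype with vehicle, and within the second 1 of the 2 genes did, with the opposite sign. Mcpt8 in wild type responded by 4.18 on the first slide and 5.43 on the second. Asking for signal well above background on all 16 arrays left neither gene. The cause was not tested, apart from the smaller number of genes or arrays these settings use.

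Leaving out each array in turn, the counts for Mcpt8 and Gzme ranged from 2 to 2 (0 to 0 with vehicle). Those for the related genes ranged from 13 to 14, 15 to 15, 2 to 3 and 8 to 12. Mcpt8 ranged from 4.61 to 5.06 in wild type, 5.80 to 6.16 in knockout and 1.04 to 1.21 between genotypes under TGF-β1, and Gzme from 4.56 to 4.87, 5.48 to 5.71 and 0.86 to 1.02.

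Same-numbered arrays deviated together weakly (r of -0.03 to 0.22), and the main fit did not take the numbers to pair the samples. Arrays of other numbers had a mean r of -0.053 to -0.009. Of 16 arrays, 12 were closest to their own number out of 4. Same-numbered arrays also share a slide, and whether this count exceeds chance was not tested. Whether same-numbered arrays share a run or preparation was not tested. With the replicate number as a block, 14, 15, 4 and 12 related genes changed in the 4 comparisons, against 14, 15, 3 and 11.

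Of all called genes, the share that was higher was 60.2%, 56.5%, 53.4% and 56.6% in the 4 comparisons in the order above. It was 46.1%, 46.9%, 38.9% and 47.1% in the authors' table, and 52.1%, 48.6%, 53.4% and 46.8% with quantile normalization. The median of all genes in knockout with TGF-β1 moved from 0.10 to -0.01 with quantile normalization, and it was -0.36 in the authors' table. That table covers 5257 genes in place of 15394, so its shares and median are not of the same genes.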
